A study of Mus musculus with 6 samples.

Results

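The 10 mature microRNAs (miRNAs) described here are known for their part in neuronal differentiation or for their enrichment in neurons: mmu-miR-124-3p, mmu-miR-124-5p, mmu-miR-128-3p, mmu-miR-137-3p, mmu-miR-153-3p, mmu-miR-129-5p, mmu-miR-129-2-3p, mmu-miR-138-5p, mmu-miR-218-5p and mmu-miR-149-5p (mmu, for mouse, is left off below). They were taken by name, with earlier results of these data known, from a table of 1522 rows, and all 10 were found there. Of these rows 1147 carried a miRBase name, and 375 did not and were taken as predicted miRNAs. All rows are called miRNAs below. The cells were neural stem cells, which divide and give rise to neurons and glia. They had been taken from the hippocampus of C57BL/6J male pups on postnatal day 3. The 3 libraries titled IUGR came from pups whose dams received dexamethasone, a glucocorticoid drug, by daily injection of 1 mg/kg on embryonic days E14.5 through E18.5. The 3 libraries titled Normal came from pups of dams given saline on those days. The libraries of a group stand for different litters according to the design text, and the number of pups behind each is not stated there. The names IUGR and Normal are those of the library titles, and the design text calls these groups GDE and Ctrl.

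A miRNA is cut from the stem of a hairpin precursor, whose left side gives the 5p arm and whose right side gives the 3p arm. One arm is usually kept in the Argonaute complex, where bases 2 to 8, the seed, pair with target mRNAs and lower their output, while the opposite arm is mostly degraded. miR-124-3p is a hallmark of neurons, which accumulate it as they leave the cell cycle, and it represses many transcripts of non-neuronal cells. miR-128-3p, miR-137-3p, miR-138-5p and miR-218-5p are likewise brain miRNAs: miR-128-3p dampens neuronal excitability, miR-137-3p acts on neural progenitor proliferation and on synapses, miR-138-5p limits the size of dendritic spines, and miR-218-5p is prominent in motor neurons.

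The RefSeq sequences (GRCm38.p6) of 8 of the 10 members are printed here because the seed decides which mRNAs a miRNA can pair with. Capitals mark bases 2 to 8, and each sequence runs 5′ to 3′.
miR-128-3p: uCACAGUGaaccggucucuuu
miR-137-3p: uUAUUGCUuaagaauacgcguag
miR-153-3p: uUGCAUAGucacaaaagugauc
miR-129-5p: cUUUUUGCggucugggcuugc
miR-129-2-3p: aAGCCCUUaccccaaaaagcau
miR-138-5p: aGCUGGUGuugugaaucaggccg
miR-218-5p: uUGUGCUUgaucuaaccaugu
miR-149-5p: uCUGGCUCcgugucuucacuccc
The 8 seeds were all different, so no 2 of these members share a seed family. Length ran from 21 to 23 bases and the share of G and C from 34.8% in miR-137-3p to 60.9% in miR-149-5p, around a median of 47.8% for the 456 tested miRNAs with a RefSeq sequence. A U at the first base was found in 5 of the 8 and in 40.6% of those 456.

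The 2 rows of miR-27 carried the seed of miR-128-3p moved by 1 base, so that its 7 letters stood at bases 3 to 9, in capitals here. They are shown because the mRNA sites of these miRNAs can overlap.
miR-27a-3p: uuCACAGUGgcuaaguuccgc
miR-27b-3p: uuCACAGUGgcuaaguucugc
Levels are given as RPM, read counts scaled by the total reads of a library. miR-27a-3p had a mean level of 2605 RPM over the 6 libraries, above the 627 RPM of miR-128-3p, and miR-27b-3p had 420.0 RPM. Neither miR-27 row passed the threshold between the groups in limma, with log2 folds of -0.07 (adjusted p = 0.805) and 0.09 (adjusted p = 0.901). Among the 960 rows with a RefSeq sequence, the other rows with a same or shifted seed had at most 0.565 RPM in any library. They were miR-7002-3p and miR-7026-3p for miR-218-5p and miR-6991-3p for miR-129-2-3p. Rows without a RefSeq sequence and the seeds of miR-124 were not searched.

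The 8 members with sequences came from 11 precursors in RefSeq, and all 11 lay within a longer GENCODE M21 gene on the same strand (both tables on GRCm38). miR-128-3p has a copy in an intron of R3hdm1 (Mir128-1, chromosome 1, 128202361 to 128202430, plus strand) and a copy in an intron of Arpp21 (Mir128-2, chromosome 9, 112118636 to 112118711, minus strand), which encodes a neuronal phosphoprotein. miR-218-5p has a copy in an intron of Slit2 (Mir218-1, chromosome 5, 48223942 to 48224051, plus strand) and another in an intron of Slit3 (Mir218-2, chromosome 11, 35616816 to 35616925, plus strand), both genes of secreted axon guidance proteins. Mir153 lies in an intron of Ptprn2 (chromosome 12, 117250817 to 117250885, plus strand), a gene of dense-core vesicles, and Mir149 in an intron of Gpc1 (chromosome 1, 92850378 to 92850443, plus strand), which encodes a cell surface heparan sulfate proteoglycan.

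The remaining precursors lay in non-coding genes. Mir129-2 is in an intron of Mir670hg (chromosome 2, 94241364 to 94241453, minus strand), and Mir129-1 overlaps an exon of Gm3294 (chromosome 6, 29022619 to 29022691, plus strand). Mir137 overlaps an exon of Gm26871 (chromosome 3, 118433857 to 118433929, plus strand). Mir138-1 overlaps an exon of Gm47135 (chromosome 9, 122682876 to 122682974, plus strand), and Mir138-2 an exon of C78859 (chromosome 8, 94324311 to 94324381, plus strand). A mature sequence made from 2 copies, as for miR-128-3p, miR-129-5p, miR-138-5p and miR-218-5p, cannot be divided between them from its own reads.

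Libraries held about 11751000 to 12385000 reads in all, and the reads summed over the rows of the table came to 2927136 to 3343808. Some rows, such as miR-199a-3p and miR-199b-3p, had identical fits (log2 fold -0.15 for both). A read may thus be counted in more than 1 row. Where a library shows no read, up to 3 reads (about 0.25 RPM) remain possible, and counting limits cover counting error only, since PCR copies were not marked. Of the 1522 miRNAs, 649 had at least 1 RPM in at least 3 libraries and were tested, 562 of them with a miRBase name. All 10 members passed this filter. Normal replicate 1 stood apart, as 41.4% of the tested miRNAs were highest in it.

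The 10 members spanned a 216-fold range of mean level and together held 1.72% of the RPM of the table. miR-149-5p was the highest at 1362 ± 148.6 RPM (mean ± SD over the 6 libraries), rank 41 of the 1522 miRNAs. It was followed by miR-129-5p at 887 ± 158 RPM, miR-128-3p at 627 ± 89.9 RPM and miR-153-3p at 534 ± 74.7 RPM. miR-138-5p had 321 ± 31.4 RPM, miR-218-5p 254 ± 41.7 RPM, miR-124-3p 234 ± 37.2 RPM and miR-129-2-3p 211 ± 72.2 RPM. The lowest were miR-124-5p at 7.44 ± 2.17 RPM and miR-137-3p at 6.30 ± 2.49 RPM, both below the median of 10.95 RPM of the tested miRNAs. miR-124-3p, a defining miRNA of neurons, was thus 7th of the 10 and 118th in the table (117th among the rows with a miRBase name).

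**Figure D1:**
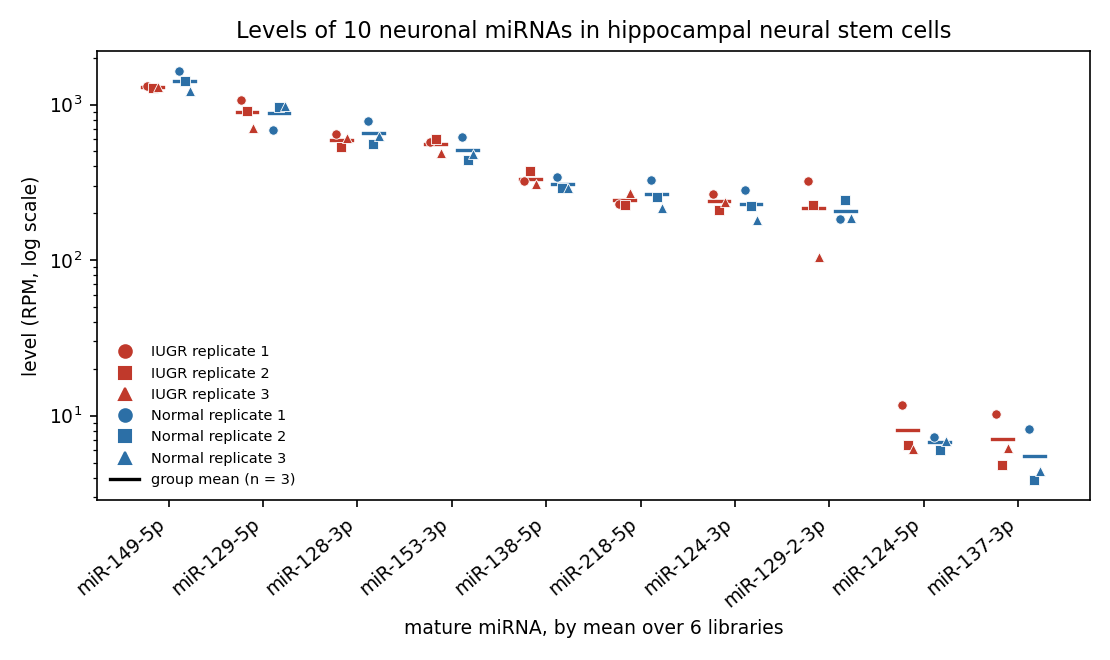
Level of each of the 10 miRNAs in RPM on a log axis, ordered by the mean over 6 libraries; red marks are the 3 IUGR libraries, blue marks the 3 Normal libraries, symbols the replicates and bars the group means. 8 miRNAs have means between 211 and 1362 RPM, and miR-124-5p and miR-137-3p lie under 12 RPM in every library.

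Levels were compared between members within each library, where the scaling of the library cancels, although 1 miRNA was not calibrated against another. Of the 45 pairs of members, 39 were in the same order in all 6 libraries, and these passed an exact two-sided sign-flip permutation test of the log2 ratio of their values (adjusted p = 0.0361 each over the 45 pairs, from the smallest p of 0.03125 that 6 libraries allow). A pair in 1 order in all 6 libraries must have this smallest p, so the test restates the count of 39. The order was read from the same libraries, so it describes their steadiness and is not a forecast. Among neighbours in the order, 4 of 9 pairs passed: miR-149-5p over miR-129-5p (1.55-fold), miR-153-3p over miR-138-5p (1.65-fold), miR-138-5p over miR-218-5p (1.27-fold) and miR-129-2-3p over miR-124-5p (24.4-fold). These folds are geometric means of the ratios on the (RPM + 1) scale.

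The other 5 neighbouring pairs could not be ordered beyond their spread. miR-129-5p was above miR-128-3p in 5 of 6 libraries, with log2 ratios of -0.21 to 0.78 (exact permutation, adjusted p = 0.0703). miR-128-3p was above miR-153-3p in 5 of 6, with log2 ratios of -0.18 to 0.38 (adjusted p = 0.103, exact permutation). miR-218-5p was above miR-124-3p in 5 of 6 libraries (log2 ratios of -0.23 to 0.23; exact permutation, adjusted p = 0.196). miR-124-3p was above miR-129-2-3p in 2 of 6 (log2 ratios of -0.26 to 1.18; exact permutation, adjusted p = 0.5). miR-124-5p was above miR-137-3p in 4 of 6 libraries (log2 ratios of -0.15 to 0.54; exact permutation, adjusted p = 0.134). The 6th pair that did not pass was miR-218-5p with miR-129-2-3p (adjusted p = 0.288, exact permutation).

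The opposite arms of the members' precursors were then examined, since the choice of members did not use them except for miR-124 and miR-129. The 3p arm of miR-124, the known guide, exceeded the 5p arm by 22.7 to 39.0-fold within a library. miR-128-3p exceeded miR-128-1-5p by 108 to 161-fold, and miR-149-5p exceeded miR-149-3p by 371 to 979-fold, where the 3p arm rested on 16 to 41 reads per library. miR-138-5p exceeded miR-138-2-3p by 21.3 to 37.5-fold. miR-153 was less one-sided, with the 3p arm 5.15 to 7.81-fold above the 5p arm. The narrowest margin belonged to miR-129, where miR-129-5p exceeded miR-129-2-3p by 3.35 to 6.82-fold. No row was found under the names miR-137-5p, miR-218-1-3p or miR-218-2-3p, so the opposite arms of miR-137 and miR-218 were not compared.

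The arm that differs in sequence between 2 precursor copies gives a view of each copy. For miR-129 the 3p arm of copy 2, miR-129-2-3p, rested on 15227 reads over the 6 libraries, and that of copy 1, miR-129-1-3p, on 520 reads. Within a library the copy 2 arm was 19.8 to 33.8-fold higher, lowest in IUGR replicate 3 and between 28.3 and 29.3-fold in the 3 Normal libraries. For miR-138 the 3p arm of copy 2 had 811 reads over the libraries and that of copy 1 had 4 reads, 2 each in IUGR replicate 1 and Normal replicate 2. Over the 6 libraries the 5p arms of miR-128 totalled 336 reads for the R3hdm1 copy (miR-128-1-5p) and 67 reads for the Arpp21 copy (miR-128-2-5p), and the first was higher in all 6 libraries, by 2.76 to 25.5-fold. These 5p arms are shown because they share bases 2 to 8, in capitals, and differ elsewhere.
miR-128-1-5p: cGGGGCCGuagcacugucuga
miR-128-2-5p: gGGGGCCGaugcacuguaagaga
miR-128-2-5p had only 2 to 25 reads per library, so that ratio rests on few reads. An opposite arm can be more or less stable in each copy, so these reads do not measure how much of the shared arm each copy gave.

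**Figure D2:**
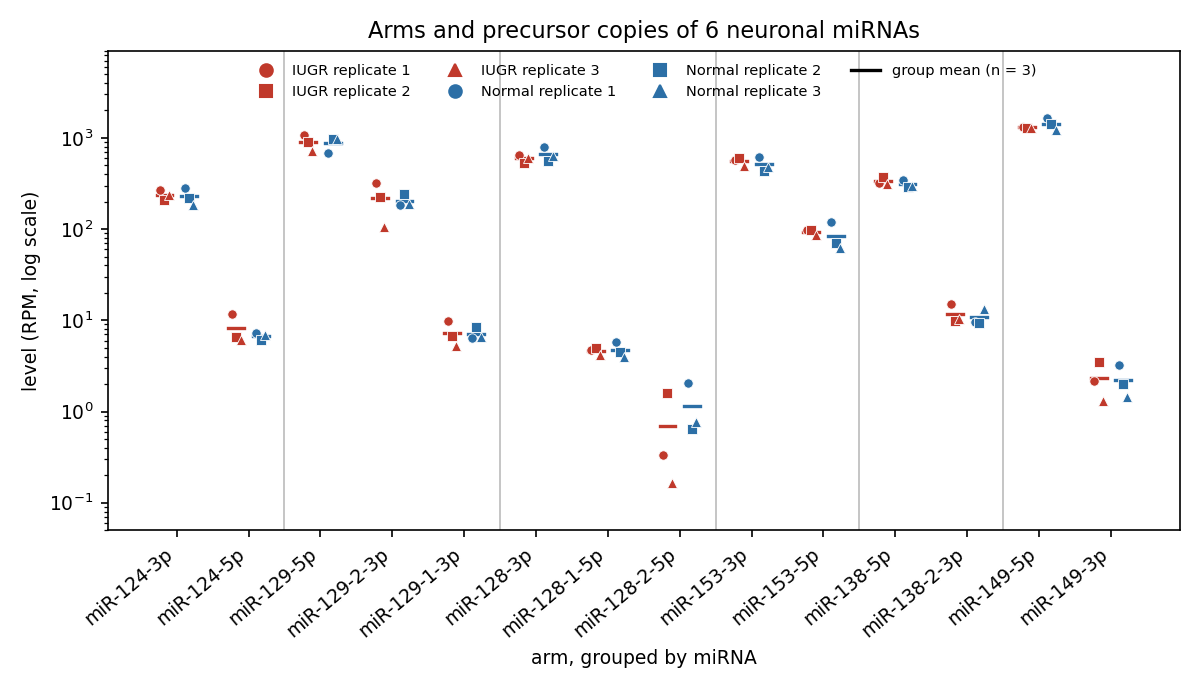
Levels in RPM on a log axis of the arms of 6 of the miRNAs, grouped by miRNA, with red for IUGR, blue for Normal, symbols for replicates and bars for group means. In each group the first arm is the highest in all libraries, and the step down to the next is smallest for miR-129 (3.35 to 6.82-fold) and largest for miR-149 (371 to 979-fold).

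The comparison of IUGR with Normal addressed whether the neuronal miRNAs of stem cells differed after exposure to dexamethasone before birth. None of the 10 members passed at an adjusted p under 0.05 in limma, where 0.308% of all tested miRNAs did (2 of 649), and their adjusted p lay between 0.787 and 0.989. Before adjustment 0 of 10 were below 0.05, against 8.63% of the tested miRNAs, and 0 of 10 did so in edgeR or DESeq2 on the recovered reads. For no member did the libraries of the groups separate fully, while they did for 14.6% of the tested miRNAs. Log2 folds of IUGR over Normal were positive for 6 members and negative for 4, with a median of 0.05 beside -0.07 for all tested miRNAs. These folds are on the log2(RPM + 1) scale, which understates changes of the lowest members. In bulk libraries fewer cells with a miRNA and less of it per cell cannot be told apart.

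miR-124-3p was at 267.2, 210.4 and 238.1 RPM in IUGR and at 283.2, 221.4 and 182.4 RPM in Normal. The highest and the lowest value were both Normal libraries, and the IUGR range lay within the Normal range. The log2 fold was 0.08 (SE 0.21), with a 95% interval of -0.42 to 0.57 (limma, adjusted p = 0.963; exact two-sided permutation p = 0.8, where 3 against 3 libraries allow no less than 0.1). Its opposite arm, miR-124-5p, had 11.8, 6.52 and 6.10 RPM in IUGR and 7.31, 6.06 and 6.89 RPM in Normal. IUGR replicate 1 was high and the other 5 libraries lay together. The log2 fold was 0.19 (95% interval -0.42 to 0.80; limma, adjusted p = 0.887).

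miR-137-3p was at 10.3, 4.83 and 6.18 RPM in IUGR and at 8.23, 3.88 and 4.43 RPM in Normal, on 48 to 123 reads per library. The first replicate was high in each group. This member had the largest log2 fold of the 10, at 0.32 (SE 0.33; 95% interval -0.45 to 1.09; limma, adjusted p = 0.796), and the only interval of the 10 that reached a 2-fold difference. miR-128-3p was at 643.5, 530.6 and 606.4 RPM in IUGR and at 788.7, 561.8 and 629.3 RPM in Normal. Normal replicate 1 was the highest and IUGR replicate 2 the lowest, with the others mixed between them. It had the most negative log2 fold of the 10, at -0.14 (SE 0.17; 95% interval -0.53 to 0.25; limma, adjusted p = 0.821).

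miR-153-3p, which is known to repress synaptic vesicle proteins, was at 576.6, 601.1 and 484.9 RPM in IUGR and at 618.9, 437.1 and 483.4 RPM in Normal. Normal replicate 1 lay above and the other Normal libraries below all IUGR libraries. The log2 fold was 0.12 (95% interval -0.29 to 0.53; limma, adjusted p = 0.901).

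miR-129-5p was at 1076, 904.0 and 710.5 RPM in IUGR and at 683.2, 967.2 and 981.8 RPM in Normal. The lowest value was Normal replicate 1 and the highest IUGR replicate 1, and the groups interleaved (log2 fold 0.03, 95% interval -0.44 to 0.50; limma, adjusted p = 0.989). miR-129-2-3p was the most variable of the abundant members, at 321.1, 225.7 and 104.2 RPM in IUGR and at 184.9, 243.8 and 187.7 RPM in Normal. IUGR held its highest and its lowest library, 3.08-fold apart, with all Normal libraries between them. Its log2 fold was -0.05 (SE 0.39; 95% interval -0.95 to 0.84; limma, adjusted p = 0.989). This sign turned positive under each of the 3 scalings tried, which raised the median log2 fold of all tested miRNAs as well, from -0.07 to between -0.02 and 0.01.

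miR-138-5p was the steadiest member, at 321.7, 371.5 and 308.3 RPM in IUGR and at 341.9, 289.6 and 293.0 RPM in Normal. The 2 lowest libraries were Normal and the highest was IUGR replicate 2, and Normal replicate 1 lay among the IUGR libraries (log2 fold 0.11, 95% interval -0.27 to 0.49; limma, adjusted p = 0.892; exact permutation p = 0.4). miR-218-5p was at 228.1, 227.0 and 270.4 RPM in IUGR and at 328.0, 252.9 and 214.9 RPM in Normal. Normal held its highest and its lowest library (log2 fold -0.12, 95% interval -0.59 to 0.36; limma, adjusted p = 0.906). miR-149-5p was at 1318, 1286 and 1291 RPM in IUGR and at 1639, 1412 and 1226 RPM in Normal. The IUGR libraries lay close together, with 2 Normal libraries above and 1 below them, and the log2 fold was -0.12 (SE 0.13; 95% interval -0.42 to 0.17; limma, adjusted p = 0.787).

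**Figure D3:**
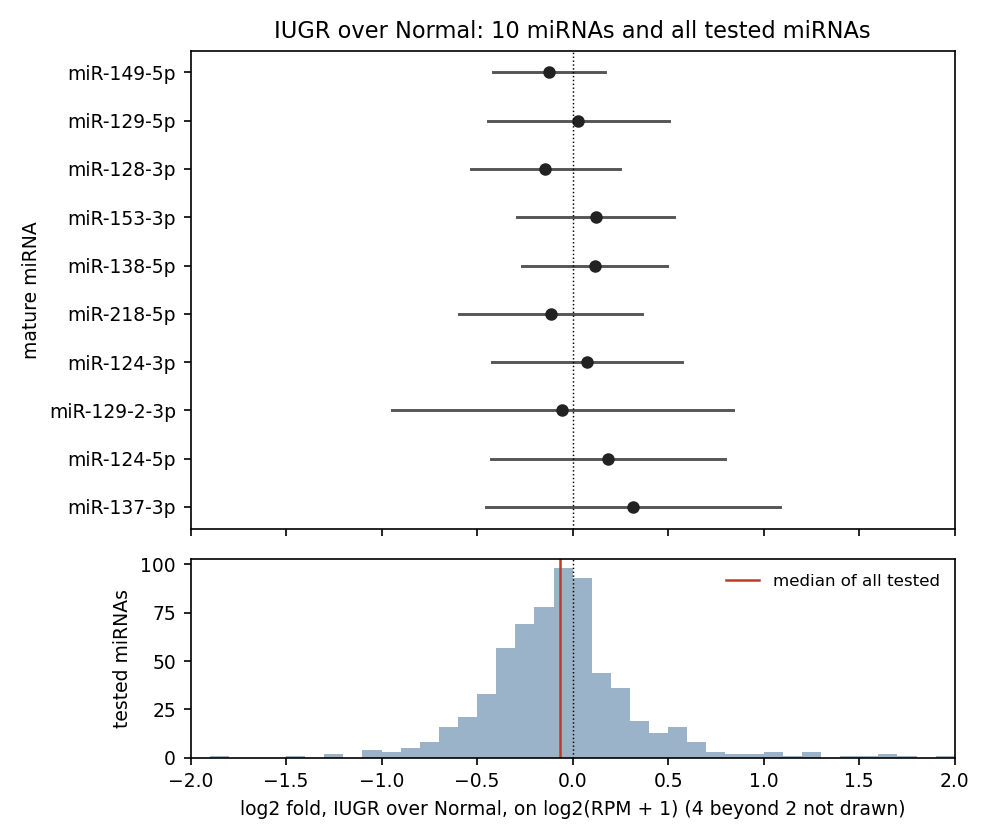
Upper panel: log2 fold of IUGR over Normal for each member on the log2(RPM + 1) scale, with points for the limma estimate and lines for the 95% interval; lower panel: number of tested miRNAs by log2 fold, in bins, with the median of all tested in red. Every member's interval holds 0, and the estimates lie between -0.14 and 0.32.

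For 9 of the 10 members the 95% interval of the main fit excluded a 2-fold difference in either direction on this scale. That of miR-129-2-3p did so narrowly, at -0.95 to 0.84 in log2. limma draws the variance of each miRNA toward a trend over all tested miRNAs. The residual SD of miR-129-2-3p was 0.605, above the median of 0.285 of the tested miRNAs. The interval of miR-129-2-3p is therefore narrower than its own values would give, and its exclusion of a 2-fold difference rests on this. Its log2 fold ran from -0.41 to 0.40 when 1 library was left out. The interval of miR-149-5p ran from 0.749 to 1.12-fold. Smaller differences were not excluded. The sign of the log2 fold held for 5 members (miR-128-3p, miR-137-3p, miR-153-3p, miR-138-5p and miR-149-5p) under the alternatives run for them and turned under at least 1 alternative for the other 5. miR-137-3p and miR-124-5p had 15 alternatives in place of 16, since the filter of at least 10 RPM in 3 libraries removed them.

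Arm use was compared through the log2 of the 5p level divided by the 3p level. Over 191 arm pairs, the share past the adjusted threshold of limma was 0%, and 7.33% were below 0.05 before adjustment. Of the 7 pairs that hold a member, 0 were in either set. For miR-124 the log2 ratio differed between IUGR and Normal by 0.11 (95% interval -0.49 to 0.71; limma, adjusted p = 0.962). For miR-129-5p over miR-129-2-3p the difference was 0.08 (95% interval -0.65 to 0.82; limma, adjusted p = 0.98), and for miR-153 it was 0.09 (95% interval -0.43 to 0.60; limma, adjusted p = 0.962). The remaining 4 pairs, of miR-128, miR-138, miR-149 and of miR-129-5p with miR-129-1-3p, had differences between -0.15 and 0.13.

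Members differed in how they varied from library to library. The coefficient of variation over the 6 libraries was 9.77% for miR-138-5p, 10.9% for miR-149-5p, 34.2% for miR-129-2-3p, 29.2% for miR-124-5p and 39.5% for miR-137-3p. Read counting alone gives about 11.5% for miR-137-3p and 10.6% for miR-124-5p, and 1.99% for miR-129-2-3p, so the spread of all 3 exceeded counting error. Among all tested miRNAs between 100 and 2000 RPM the median was 18.2%, and 7 of the 8 members in that range lay below it. The exception was miR-129-2-3p, which 9.3% of those miRNAs exceeded.

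The libraries that were high did not follow the groups. Of the 10 members 5 were highest in Normal replicate 1 (miR-149-5p, miR-128-3p, miR-153-3p, miR-218-5p and miR-124-3p), the library that was highest for 41.4% of the tested miRNAs as well. IUGR replicate 1 was highest for 4 members (both miR-129 members, miR-124-5p and miR-137-3p), against 15.4% of the tested miRNAs, and miR-138-5p was highest in IUGR replicate 2. Normal replicate 1 was the lowest library of miR-129-5p, at a deviation of -0.36 on the log2(RPM + 1) scale, and miR-129-2-3p stood at -0.11 there. The other abundant members were above their means in that library, from 0.10 for miR-138-5p to 0.39 for miR-218-5p. In IUGR replicate 3 miR-129-2-3p deviated by -0.93 and miR-129-5p by -0.30. Their common precursor is Mir129-2. Both miR-129-2-3p and miR-129-1-3p of the other copy (5.28 RPM) were lowest in IUGR replicate 3, as were 32.0% of the tested miRNAs.

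**Figure D4:**
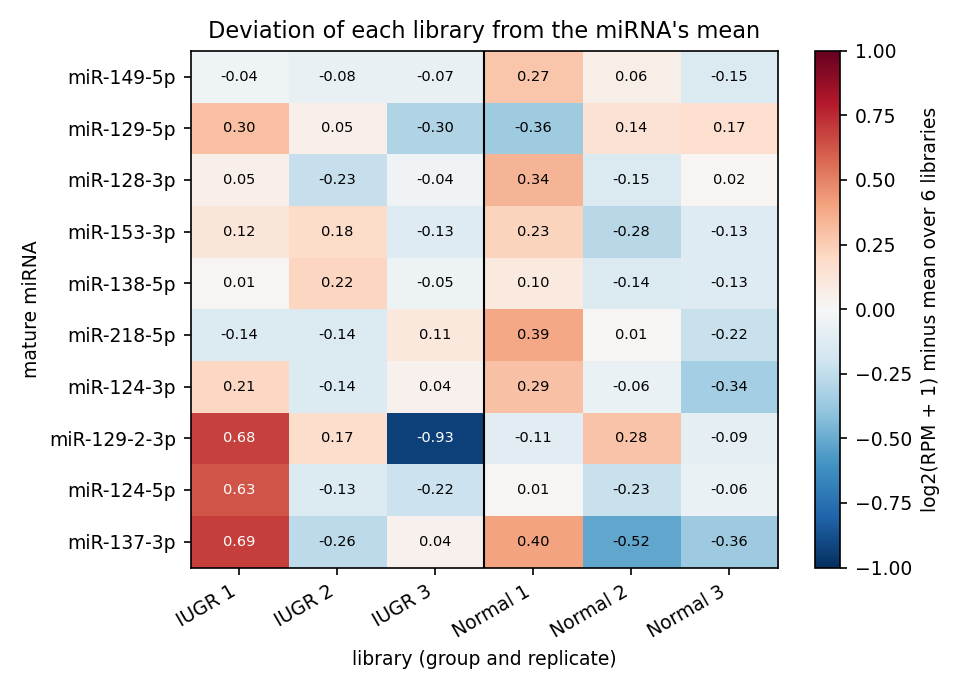
Deviation of each library (columns, IUGR left of the line and Normal right) from the mean of the miRNA over 6 libraries (rows, by mean level), on the log2(RPM + 1) scale, with red above and blue below the mean. The largest deviations are miR-129-2-3p in IUGR replicate 3 (-0.93) and miR-137-3p, miR-129-2-3p and miR-124-5p in IUGR replicate 1 (0.69, 0.68 and 0.63).

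Other neuron-enriched miRNAs were set beside the members. Of 22 listed miRNAs 21 were tested, and none passed the adjusted threshold; 11 log2 folds were positive and 10 negative, with a median of 0.04. The 4 most abundant had means between 177 and 613 RPM over the 6 libraries. miR-384-5p was at 576 ± 43.4 RPM in IUGR and 650.3 ± 101 RPM in Normal (n = 3 each), and miR-383-5p at 268 ± 36.1 and 231 ± 31.9 RPM. miR-7a-5p, which targets alpha-synuclein, was at 235 ± 29.4 and 258 ± 54.4 RPM, and miR-139-5p at 182 ± 23.1 and 173 ± 29.9 RPM. In limma their adjusted p lay between 0.744 and 0.963. An unadjusted p under 0.05 was found for 3 of the 21, where 8.63% of all tested miRNAs had one. These were miR-410-3p, miR-323-3p and miR-487b-3p, each higher in IUGR, with log2 folds of 0.70, 1.03 and 0.72 (limma, adjusted p = 0.551, 0.561 and 0.561). Libraries of the groups did not overlap for miR-410-3p and miR-487b-3p, nor for 14.6% of all tested miRNAs. They did not overlap for miR-379-5p either, which was lower in IUGR, with a log2 fold of -0.61 (limma, adjusted p = 0.561).

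The label of neural stem cells was checked against miRNA markers. All 8 progenitor miRNAs were tested. Their log2 folds were all negative, with a median of -0.08, where 397 of the 649 tested miRNAs were negative with a median of -0.07. The highest level was that of miR-9-5p, which drives and times neurogenesis, at 8389 ± 209 RPM in IUGR and 8427 ± 357 RPM in Normal. It was followed by let-7b-5p at 8281 ± 105 and 8407 ± 227 RPM. These miRNAs are shared with neurons, so they do not separate the types, and which cells held the neuronal miRNAs was not tested. Markers of other cell types were also detected. Of the microglia and leukocyte list, 5 of 6 log2 folds were positive, beside 252 of the 649 tested miRNAs, and their median was 1.25, beside -0.07. None of the 6 passed the adjusted threshold, while 3 had an unadjusted p under 0.05 and libraries that did not overlap between the groups, each higher in IUGR. These were miR-150-5p at 298 ± 62.5 RPM in IUGR and 127 ± 52.4 RPM in Normal, miR-223-3p at 78.3 ± 15.5 and 29.95 ± 21.2 RPM, and miR-142a-3p at 12.9 ± 3.92 and 4.78 ± 4.92 RPM (limma, adjusted p = 0.51, 0.551 and 0.561). The summed level of the list was 2166 to 2660 RPM in IUGR and 1482 to 2203 RPM in Normal, most of it miR-146a-5p at 1889 ± 175 and 1628 ± 321 RPM. The summed level of the oligodendrocyte list (miR-338-3p, miR-219a-5p and miR-219a-2-3p) was 209.5 to 264 RPM in IUGR and 159.7 to 235 RPM in Normal. For the endothelial and mural list, led by miR-126a-3p and miR-143-3p, it was 339.7 to 559 and 316 to 409 RPM, and for the erythroid list, led by miR-451a and miR-486a-5p, 73.8 to 93.5 and 35.0 to 69.0 RPM. The choroid plexus list, led by miR-34c-5p and miR-204-5p, summed to 1522 to 1839 and 1257 to 1539 RPM, and the muscle list, led by miR-206-3p, to 16.3 to 36.3 and 23.9 to 52.6 RPM. The liver miRNA miR-122-5p was at 12.4 ± 4.78 and 9.29 ± 1.49 RPM. Log2 folds were positive for 3 of 3 oligodendrocyte, 4 of 4 endothelial and mural and 2 of 2 tested erythroid miRNAs. They were positive for 2 of 4 choroid plexus and 0 of 1 tested muscle miRNAs. In limma miR-145a-5p, miR-451a and miR-204-5p had an unadjusted p under 0.05, as did 8.63% of tested miRNAs. Libraries did not overlap for miR-145a-5p, miR-126a-5p and miR-451a, nor for 14.6% of tested miRNAs. Each of these markers was higher in IUGR. No listed marker was at 0 in all libraries and none passed the threshold, and the part of these cells in the members' levels was not tested.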

How the data were processed

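Small RNA libraries were made from total RNA with the MGIEasy Small RNA kit, per the labels' protocols. The submitters' processing notes name Bowtie2 and mm10, with no version or role; trimming and the handling of multi-matching reads: not given in the sources used here. Values deposited by the authors were taken to be RPM by their own steps, as the header says only expression. In each library all nonzero values were whole multiples of 1 step within 0.1 reads (100%), which gave the depth and the whole reads.

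limma 3.58.1 (R 4.3.3) with a trend was fitted to log2(RPM + 1) over the 649 miRNAs with at least 1 RPM in 3 libraries, two-sided, with Benjamini-Hochberg adjustment at 0.05. edgeR 4.0.16 and DESeq2 1.42.0 were run on the recovered reads as alternatives and called 2 and 5 miRNAs, beside 2 in limma. Pair levels were tested by exact sign flips over libraries. Arms were matched by name. Sequences and precursors came from RefSeq (GRCm38.p6), which matched 8 members; hosts came from GENCODE M21. Functions were tested on simulated data. Python 3.11.15, scipy 1.17.1 and pandas 2.3.3 were used. Members, lists and the rule for named miRNAs (all members, their opposite arms, seed partners, the 4 most abundant of the other neuron-enriched list and up to 2 of each marker list) were chosen with earlier results of these data known. Other list miRNAs were also named outside this rule, some for their values. Replicates differed by far more than counting noise, so none was taken as a repeat. The p-values measure the spread between these 6 libraries.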

Additional observations from a re-analysis of the deposited data

How the results depend on the processing

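No member passed the threshold under any of the alternatives run for it, which changed the pseudocount (0.1 or 10 RPM), the filter, the scaling, the tool, the block or left out 1 library, and the lowest adjusted p of any member over them was 0.49. Over all tested miRNAs 2 passed; with at least 10 RPM in 3 libraries 1 passed (fewer were tested), in DESeq2 5 passed (the cause was not tested), and without 1 library 2 to 3 passed. Of 158 log2 folds of members under alternatives 13 changed sign, none of them past the threshold. The log2 fold of miR-129-2-3p, -0.05 as deposited, was 0.0056 scaled to the sum of the table, 0.034 by TMM factors, 0.042 by size factors, 0.13 in edgeR and 0.14 in DESeq2. Leaving out 1 library gave -0.41 to 0.40 for miR-129-2-3p, turned by IUGR replicate 3 or Normal replicate 2. It gave -0.076 to 0.24 for miR-124-3p, turned by IUGR replicate 1 or Normal replicate 3, and -0.082 to 0.34 for miR-124-5p, turned by IUGR replicate 1. It gave -0.14 to 0.19 for miR-129-5p, turned by IUGR replicate 1 or Normal replicate 1, and -0.26 to 0.048 for miR-218-5p, turned by Normal replicate 1. For miR-137-3p it gave 0.05 without IUGR replicate 1 and up to 0.60. Arm ratios without 1 library differed by -0.073 to 0.28 for miR-124, -0.072 to 0.16 for miR-129-5p over miR-129-1-3p, -0.21 to 0.30 over miR-129-2-3p, -0.19 to 0.20 for miR-138, -0.38 to 0.10 for miR-149 and -0.067 to 0.23 for miR-153; with a pseudocount of 10 that of miR-138 was 0.042. For the order of levels, neither the pseudocount nor leaving out a library can lower the count of 39 pairs in 1 order, by construction, so these settings do not test it.

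Replicate numbers are shared by the groups. Deviations of same-numbered libraries correlated at -0.03, -0.12 and -0.03 over miRNAs, and those of differently numbered libraries at -0.07 to 0.15. These values showed no pairing by number, but they cannot exclude one. With a replicate block 2 miRNAs and 0 members passed. miR-124-5p and miR-137-3p rested on 48 to 141 reads per library, but their spread between libraries exceeded counting error.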
